A study of Mus musculus with 5 samples.

Results

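The Hox genes are homeobox transcription factor genes that lie side by side in 4 clusters, Hoxa on chromosome 6, Hoxb on chromosome 11, Hoxc on chromosome 15 and Hoxd on chromosome 2. The members described here were 38 Hox genes, 10 each in Hoxa and Hoxb and 9 each in Hoxc and Hoxd, of 49939 genes in the mouse gene table. Binding sites were assigned to a cluster by position alone: the summit of a peak had to lie between the first and the last of these genes, or within 200 kb of that span. This took in 27 of the 5703 Foxf1 peaks and 2 of the 1134 Hand1 peaks.

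The peaks come from chromatin immunoprecipitation followed by sequencing (ChIP-seq) in E14, a mouse embryonic stem cell line. Cells were aggregated as embryoid bodies in serum-free medium for 48 h and then re-aggregated for 40 h with VEGF at 5 ng/ml, Activin A at 10 ng/ml and BMP4 at 0.3 ng/ml, which gives the stage labelled MES. The stage labelled CP followed after a further 32 h as a monolayer with VEGF at 5 ng/ml, basic FGF at 10 ng/ml and FGF10 at 25 ng/ml. The Hand1 list is from a line in which Hand1 carries an HA tag at its own gene, at MES (1 library), and the Foxf1 list from a line with inducible overexpression of HA-tagged Foxf1, at CP (2 libraries, of which the list belongs to replicate 1). There is also 1 input library per stage. Factor, stage and expression system differ together between the lists, so they cannot be told apart. The inducer, its dose and the number of clones per line are not given in the sources used here. A peak list holds no RNA levels, so the stages could not be checked against marker genes. With 1 list per factor there is no replicate error, and each interval below covers counting error only.

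Hox proteins give cells their position along the head-to-tail axis, and the order of the genes in a cluster follows the order of their expression domains. Genes of the low-numbered paralog groups are expressed first and farthest anterior, and those of the high-numbered groups later and more posterior. In early mesoderm the anterior genes accompany the patterning of the heart-forming and trunk mesoderm, and long stretches beside the clusters hold enhancers that act on them. Hand1 is a basic helix-loop-helix factor that binds E-boxes, and Foxf1 is a forkhead factor of lateral plate and splanchnic mesoderm.

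Promoter sequences were available under 2 of the Foxf1 peaks inside the clusters and under the Hand1 peak beside Hoxb. They are shown because a summit fell within the 250 bases before the transcription start. Each runs 5′ to 3′ on the strand of its gene and ends at the base before the start. Sequences and starts are from RefSeq (GRCm38.p6). Capitals mark the forkhead motif GTAAACA and the E-box CANNTG, searched on both strands. The E-box reads the same on both, and the motifs share no base in these sequences. The first belongs to 5730596B20Rik, a lncRNA gene inside the Hoxa cluster (chr6:52176905-52177154, plus strand), the second to Hoxa5 (chr6:52204588-52204837, minus strand) and the third to Gip (chr11:96024295-96024544, plus strand), the gene of a gut hormone.
5730596B20Rik: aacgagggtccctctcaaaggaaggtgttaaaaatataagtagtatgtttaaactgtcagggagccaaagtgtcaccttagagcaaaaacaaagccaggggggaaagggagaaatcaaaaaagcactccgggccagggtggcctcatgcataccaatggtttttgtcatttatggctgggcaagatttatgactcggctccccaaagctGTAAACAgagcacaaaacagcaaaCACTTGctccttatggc
Hoxa5: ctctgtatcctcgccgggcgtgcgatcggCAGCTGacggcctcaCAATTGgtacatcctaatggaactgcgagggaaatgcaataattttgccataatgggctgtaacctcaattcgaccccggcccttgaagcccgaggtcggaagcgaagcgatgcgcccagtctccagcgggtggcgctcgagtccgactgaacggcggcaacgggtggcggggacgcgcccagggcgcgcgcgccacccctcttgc
Gip: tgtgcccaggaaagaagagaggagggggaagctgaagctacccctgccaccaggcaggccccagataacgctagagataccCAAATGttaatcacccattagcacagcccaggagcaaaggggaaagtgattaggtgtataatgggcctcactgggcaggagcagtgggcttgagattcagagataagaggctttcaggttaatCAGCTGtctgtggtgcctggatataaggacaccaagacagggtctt

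In the first sequence the Foxf1 summit fell on base 201, counted from 1 at the 5′ end, and the GTAAACA match began at base 210, so the summit was close to the motif. That sequence also holds an E-box at base 234. In the Hoxa5 sequence the Foxf1 summit fell on base 183, and no GTAAACA was found in the 250 bases. The Hoxa5 sequence holds E-boxes at bases 30 and 45. The Hand1 summit in the Gip sequence fell on base 129, between E-boxes at bases 82 and 205. Over all 32851 promoters of the table, 3.17% held GTAAACA in the same 250-base window and 66.2% held an E-box. The 24 promoters listed for 22 of the Hox genes held GTAAACA in 0 cases and an E-box in 17. The Hoxa5 window was 63.6% G or C and held 28 CG pairs, the 5730596B20Rik window 45.6% and 3. The medians over all promoters were 52.4% and 6 pairs.

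Foxf1 summits lay in the neighbourhood of every Hox cluster, and inside 3 of the 4. Their numbers were 7 for Hoxa, 9 for Hoxb, 9 for Hoxc and 2 for Hoxd, of which 5, 3, 1 and 0 were inside the cluster. The 27 summits made up 0.477% of the 5663 on named chromosomes (95% exact Clopper-Pearson interval 0.314% to 0.693%). Per length there were 12.9 summits per Mb in the windows (exact Poisson interval 8.53 to 18.8) against 2.98 per Mb on the rest of the same chromosomes. Protein-coding genes were also denser in the windows, at 26.4 per Mb against 9.49, and per protein-coding gene there were 0.491 summits in the windows and 0.314 elsewhere. The part of gene density in the result was not tested further. Hand1 had 2 summits in the windows, 0.178% of 1122 (interval 0.0216% to 0.642%), and 0 inside a cluster. That was 0.959 per Mb (exact Poisson interval 0.116 to 3.47) against 0.391 per Mb on the rest of the same chromosomes, a value inside the interval. No Hand1 peak shared a base with a Foxf1 peak there.

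**Figure D1:**
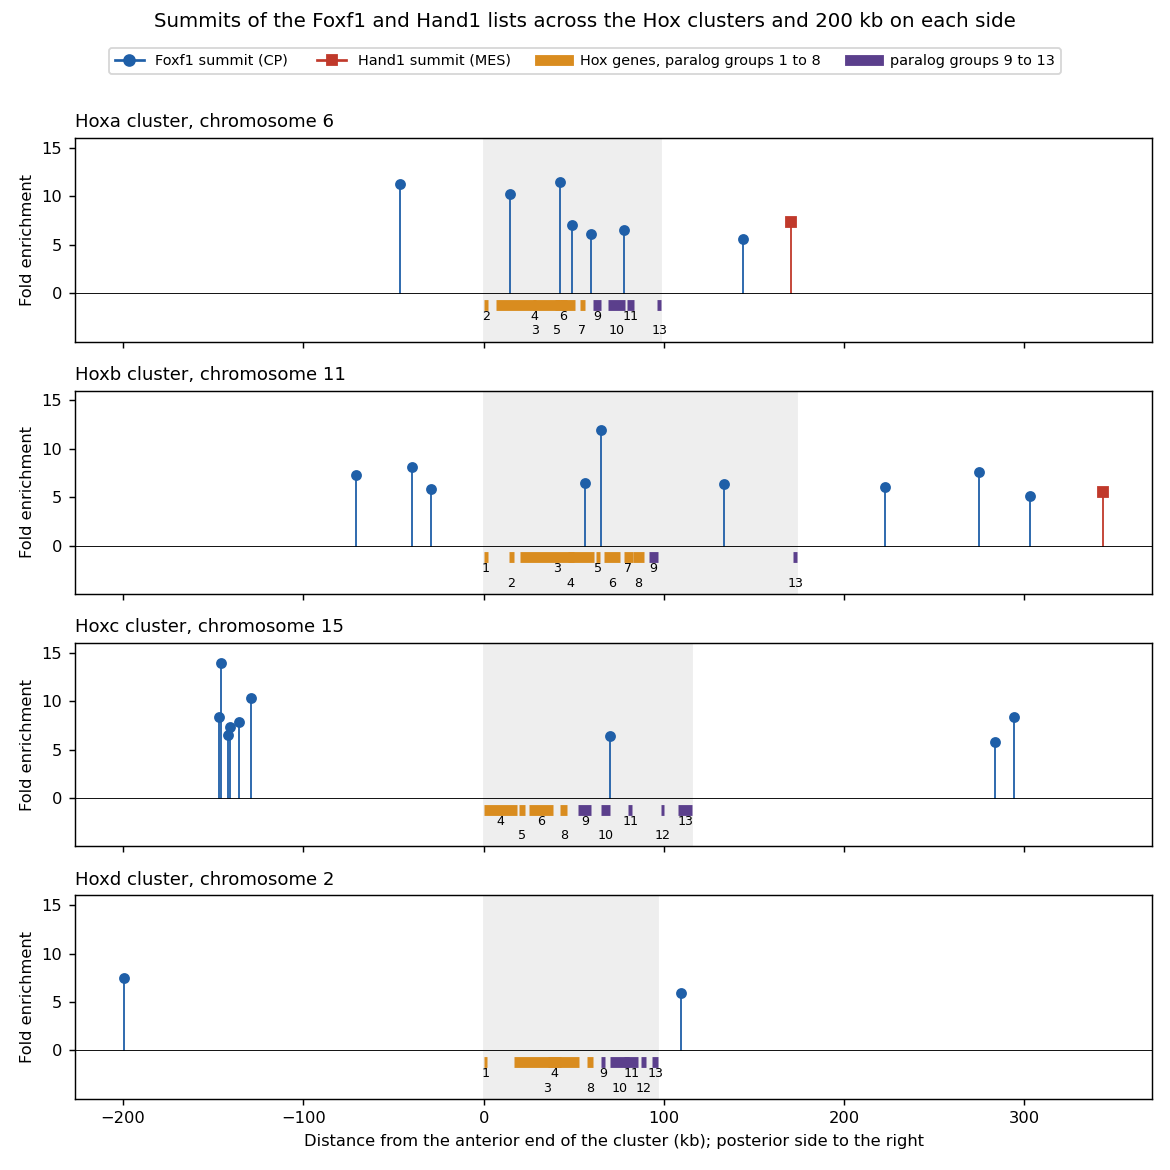
Foxf1 summits (blue circles) and Hand1 summits (red squares) along each Hox cluster; the horizontal axis is the distance in kb from the anterior end of the cluster and the vertical axis the authors' fold enrichment. Grey marks the cluster, bars the genes with their paralog group. The 9 Foxf1 summits inside clusters lie in Hoxa, Hoxb and Hoxc, and both Hand1 summits lie beyond the posterior ends of Hoxa and Hoxb.

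The Hoxa cluster held the most Foxf1 summits, 5 in a span of 98.5 kb. Of 27051 tiles of 100 kb over the named chromosomes, 0.137% held 5 or more Foxf1 summits. The limit of 5 was the cluster's own count, and Hoxa was the highest of the 4 clusters, so this share is a description. The tiles were not matched for gene density. The highest of the 5 was the peak at the start of Hoxa5 (chr6:52204385-52204882), a gene known for its role in lung and axial skeleton development. Its summit lay 68 bases before the start, in the sequence printed above, and 0.203 kb past the end of Hoxa6. The precipitated library held an inferred 69 fragments there at a control level of 5.11, and the fold over background was 11.5 (interval 8.95 to 14.5, rank 569 in the list). The control level is the number of fragments expected from background at the same place. The summit also lies inside the long gene models of Hoxa3 and of the antisense lncRNA gene Hoxaas3, so the peak cannot be given to 1 gene by position.

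The second site of Hoxa by fold was the peak at the start of 5730596B20Rik (chr6:52176857-52177704; summit 50 bases upstream of the start), inside the gene model of Hoxa3, a gene of pharyngeal arch patterning. It held 59 fragments at a control level of 4.87, with a fold of 10.2 (interval 7.82 to 13.1, rank 908). The next peak past the Hoxa5 site toward the posterior end (chr6:52211053-52211930) lay 1334 bases downstream of a Hoxa3 start. It had a fold of 7.06 (interval 5.26 to 9.28) from 49 fragments. A peak between Hoxa7 and Hoxa9 (chr6:52221633-52222192) had a fold of 6.06 (interval 4.35 to 8.23) from 39 fragments. The fifth (chr6:52240313-52240716) lay inside Hoxa10, 318 bases downstream of a start, with a fold of 6.50 (interval 4.56 to 9.01) from 34 fragments. Hoxa9 and Hoxa10 belong to the posterior groups, and Hoxa10 acts in limb and reproductive tract. The intervals of the Hoxa5 and Hoxa9 sites did not overlap, while that of Hoxa5 overlapped the intervals of the other 3.

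Beyond the anterior end of Hoxa a further Foxf1 peak (chr6:52115577-52116196) lay 46.4 kb from Hoxa2, with 52 fragments and a fold of 11.3 (interval 8.47 to 14.7, rank 622). Beyond the posterior end, a peak of fold 5.57 (chr6:52305875-52306494; 29 fragments) lay 45.2 kb from Hoxa13 and 7.43 kb from Evx1, the even-skipped homologue next to the cluster. Neither flank held another Foxf1 summit within 200 kb.

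In the Hoxb cluster the strongest Foxf1 peak was at a gene of paralog group 5. It lay at the start of Hoxb5 (chr11:96302924-96303857), 267 bases upstream of the gene's 5′ end and inside the antisense lncRNA gene Hoxb5os. It held 42 fragments at a control level of 2.59, with a fold of 12.0 (interval 8.71 to 16.1, rank 464). A second peak (chr11:96311625-96312071; fold 6.45, 29 fragments) lay in the gene model of Hoxb3 and 6.48 kb from Hoxb4, a gene also known in blood stem cells. The third (chr11:96234924-96235301; fold 6.32, 33 fragments) lay in the long gap between Hoxb9 and Hoxb13, 36.2 kb and 38.5 kb from them. The intervals of these 2 weaker sites, 4.39 to 9.17 and 4.41 to 8.80, overlapped each other and, slightly, that of Hoxb5.

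The flanks of Hoxb held 6 Foxf1 summits, 3 on each side. On the anterior side, past Hoxb1, a hindbrain gene, they lay 29.0, 39.7 and 70.7 kb from the gene with folds of 5.80, 8.16 and 7.28. On the posterior side they lay 48.5 kb from Hoxb13 inside Ttll6 (fold 6.02), 100.8 kb away (fold 7.57) and 129.0 kb away at Ube2z (fold 5.07). The Ube2z summit (chr11:96065108-96065518) fell 25 bases downstream of that gene's start.

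Hoxc differed in layout, since 8 of its 9 Foxf1 summits were outside the cluster. The peak inside (chr15:102966342-102966733) lay 221 bases upstream of the 5′ end of Hoxc10, a posterior gene of limb and lumbar patterning, with 32 fragments and a fold of 6.42 (interval 4.45 to 8.99). Past the anterior end, 6 summits stood within 17.8 kb, from 129 to 147 kb beyond Hoxc4, from inside the DNA repair gene Smug1 toward the heterochromatin protein gene Cbx5. This run was picked out after its values were seen. Its closest neighbouring summits lay 1.05 kb and 1.13 kb apart, so the 6 summits need not be separate sites. Of the 100-kb tiles, which were not matched for gene density, 0.0776% held 6 or more. The highest peak of the run (chr15:103182106-103182725) had the highest fold of all 27, at 13.9 (interval 10.6 to 18.0, rank 236) from 57 fragments. The peak inside Smug1 (chr15:103165410-103166089) had a fold of 10.3 (interval 7.36 to 14.1) from 37 fragments. The other 4 had folds of 6.48 to 8.40. On the posterior side a peak 178 kb from Hoxc13 (chr15:102742550-102742979) had a fold of 8.36 from 44 fragments, and one 168 kb away, inside Gm36560, had a fold of 5.80.

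Hoxd had no Foxf1 summit inside its 96.9 kb and 2 in its flanks. Of the 100-kb tiles, 14.7% held at least 1 Foxf1 summit, so most spans of about this length had none. The nearer peak (chr2:74655416-74656115) lay 12.6 kb beyond Hoxd13, a digit patterning gene, inside Evx2, with a fold of 5.90 (interval 3.90 to 8.60) from 25 fragments. The other (chr2:74964346-74964752) lay 199 kb beyond Hoxd1, close to the limit of the window, with a fold of 7.46 from 21 fragments. The Foxf1 peaks nearest outside the 200-kb limit of any cluster lay 214 kb past Hoxc4 (fold 8.82, 25 fragments) and 223 kb past Hoxc13 (fold 5.57, 29 fragments). The nearest Hand1 peak outside it lay 335 kb past Hoxb13 (fold 8.60, 38 fragments).

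The 2 Hand1 peaks near the clusters lay outside them, beyond the posterior ends of Hoxa and Hoxb. The first (chr6:52332658-52333077) stood 71.9 kb beyond Hoxa13 and 14.4 kb from Evx1, with 23 fragments, a fold of 7.36 (interval 4.78 to 10.9) and a −log10 q-value of 11.9. The second (chr11:96024192-96024550) stood 170 kb beyond Hoxb13, with 14 fragments, a fold of 5.56 (interval 3.21 to 9.08) and a −log10 q-value of 5.27, near the list's lowest value of 5.01. Its summit lay 122 bases upstream of the start of Gip, in the third sequence above. The nearest Foxf1 summits were 26.7 kb and 40.9 kb away. Both folds were below the Hand1 list's median of 7.92. The Hand1 summit nearest to Hoxd was 775 kb away and that nearest to Hoxc 3060 kb. At least 1 Hand1 summit was found in 2.47% of the 100-kb tiles, so most tiles had none. These tiles were not matched for gene density either.

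By gene, 13 of the 38 Hox genes had a Foxf1 summit within 10 kb (34.2%), against 22.7% of the 21883 protein-coding genes. They were Hoxa3, Hoxa5, Hoxa6, Hoxa7, Hoxa9, Hoxa10 and Hoxa11, then Hoxb3, Hoxb4, Hoxb5 and Hoxb6, and Hoxc10 and Hoxc11. Neighbouring Hox genes share summits, so the 13 genes stand for 8 of the 9 summits inside clusters and are not independent. Within 1 kb the count was 7 of 38 (18.4%) against 14.5% of protein-coding genes, which is close to the background. Within 50 kb it was 34 (89.5%) against 41.7%, when most clusters are covered by a few summits. The genes beyond 50 kb were Hoxc4, Hoxd1, Hoxd3 and Hoxd4. No Hox gene had a Hand1 summit within 10 kb (0 of 38, against 2.8% of protein-coding genes) or within 50 kb (6.06%).

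**Figure D2:**
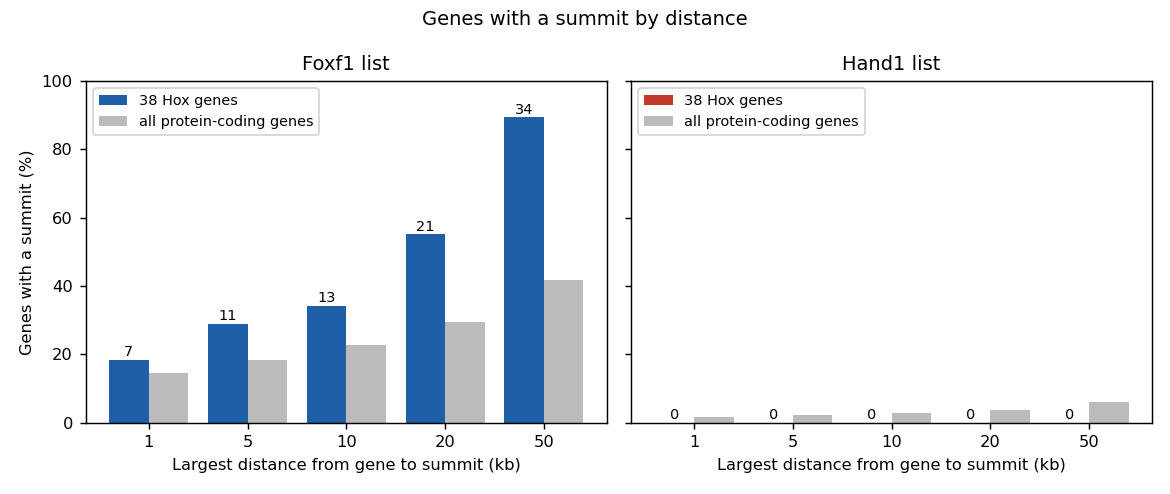
Percent of genes with a summit of the Foxf1 list (left) or Hand1 list (right) within each distance in kb, for the 38 Hox genes (coloured bars, with their count) and for all 21883 protein-coding genes (grey bars). The Foxf1 bars differ little at 1 kb (18.4% and 14.5%) and widely at 50 kb (89.5% and 41.7%), and no Hox gene reaches a Hand1 summit.

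Starts were considered apart from gene bodies. A Foxf1 summit lay within 500 bases of the start of Hoxa5, Hoxa10, Hoxb5 and Hoxc10, that is 4 of 38. For Hoxb5 and Hoxc10 the start was taken as the 5′ end of the gene model. Of the 22 Hox genes whose start the promoter table gives, 2 had such a summit, against 5.15% of 17491 protein-coding genes did. These counts are too small to set against the background. The clusters also hold microRNA genes, some of which repress Hox transcripts. Foxf1 summits lay within 10 kb of Mir10a (5.38 kb), Mir196a-2 (6.78 kb) and Mir196b (8.27 kb), and none lay within 5 kb. The summit nearest to Mir196a-1 was 30.1 kb away and that nearest to Mir10b 70.4 kb. Of protein-coding genes, 22.7% had a Foxf1 summit within 10 kb and 18.4% within 5 kb. The microRNA genes are too few to set against these shares.

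Position along the clusters was split at the border between paralog groups 8 and 9. Each summit took the side of its nearest Hox gene, so a summit in a flank took the side of the end gene. On the anterior side there were 16 Foxf1 summits, 5 of them inside clusters, and on the posterior side 11, 4 of them inside. Per length of cluster these were 1.92 summits per 100 kb (exact Poisson interval 0.623 to 4.47) and 1.78 per 100 kb (interval 0.486 to 4.57), so the numbers did not separate the sides. Of the anterior genes 8 of 22 had a Foxf1 summit within 10 kb, and of the posterior genes 5 of 16. The folds were higher on the anterior side, with a median of 8.02 and a range of 5.80 to 13.9 against 6.06 and 5.07 to 8.36. The ranges overlapped. The control level differed between the sides too, with a median of 3.16 on the anterior and 4.38 on the posterior side, while the inferred fragments had medians of 32.5 and 30. Since the fold divides fragments by control level, the 2 are linked by construction. Of the 16 anterior peaks 9 exceeded the Foxf1 list's median of 7.62, and of the 11 posterior peaks 1 did, the peak 178 kb beyond Hoxc13. The 6 peaks with a fold above 10 were all anterior: those at Hoxa5, Hoxb5 and 5730596B20Rik, the one beyond Hoxa2, and 2 of the run beyond Hoxc4. Peaks of 1 list are not replicates of a position, so no test was made of this difference. Both Hand1 summits were on the posterior side.

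**Figure D3:**
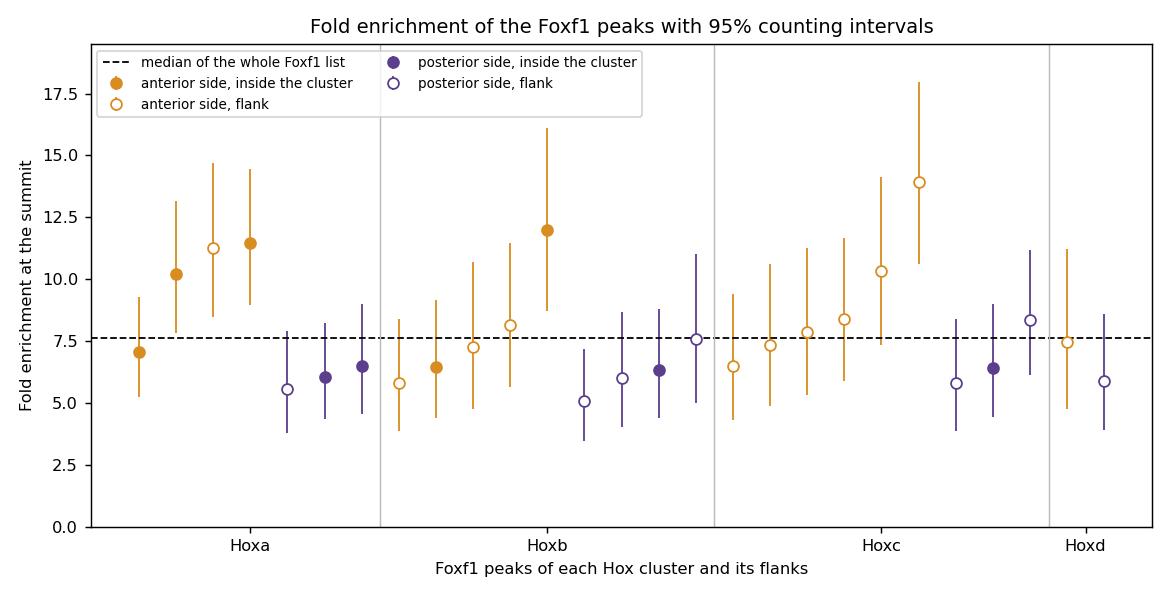
Fold enrichment of each of the 27 Foxf1 peaks, grouped by cluster, with bars for the 95% exact Poisson interval of the fragments at the summit; filled points lie inside a cluster and open points in a flank. Anterior points (orange) reach 13.9, while posterior points (purple) stay at or below 8.36, and the dashed line is the median of the whole list, 7.62.

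As a group the peaks at Hox loci were of ordinary strength for the list. Their median fold was 7.28 (order-statistic interval 6.32 to 8.36) against 7.62 for all Foxf1 peaks, and 10 of 27 exceeded that median. The inferred fragments ranged from 21 to 69 with a median of 31, against 29 in the whole list. The control level had a median of 3.65 at Hox loci and 2.92 in the whole list. It was highest for Hoxa, from 3.71 to 6.09, and all Foxf1 peaks on chromosome 6 had a median of 3.71. For Hoxb it was 2.43 to 5.11, for Hoxc 2.68 to 4.38 and for Hoxd 1.95 to 3.41. A higher control level lets a peak of lower fold pass the list's limit, and its part in the number of Hoxa peaks was not tested. No Hox peak reached 7.83, 5 times the lowest control level of the list.

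**Figure D4:**
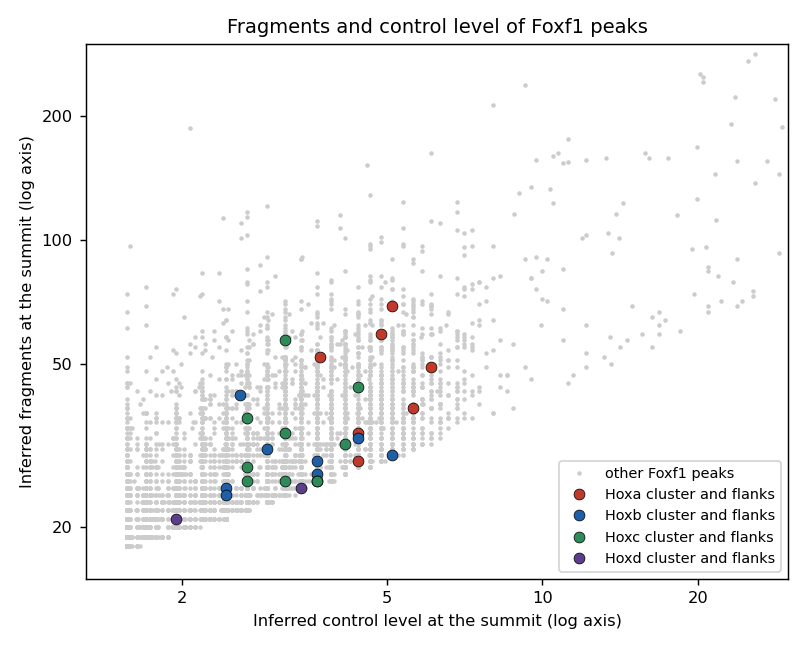
Inferred fragments against inferred control level at the summit of each Foxf1 peak, both on log axes; coloured points are the peaks at the Hox clusters and grey points the rest of the list, of which 100 lie outside the axes or could not be solved. The Hoxa points (red) have control levels of 3.71 to 6.09 and up to 69 fragments, inside the cloud of all peaks.

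Genes that act with or upstream of the Hox genes were followed in the same lists, together with the ParaHox genes and the cluster neighbours Evx1 and Evx2. Of these 36 genes, 20 had a Foxf1 summit within 10 kb and 3 a Hand1 summit, against the 22.7% and 2.8% of protein-coding genes given above. Evx1 and Evx2 are among the 20 through peaks of the Hox windows already described. The lists were small and chosen with earlier results known, and gene length was not taken into account, so the counts are descriptions. Retinoic acid, which switches on anterior Hox genes, is made, degraded and sensed by 11 of these genes, and 9 had a Foxf1 summit within 10 kb. All 3 receptor genes held a summit in the gene body: Rarb with a fold of 13.7 from 36 fragments, Rara with 7.71 and Rarg with 6.24. The degrading enzymes Cyp26b1 (fold 5.05) and Cyp26c1 (6.00) did too, and the summit nearest to Cyp26a1 (9.32) lay 6.72 kb away. That last summit was within 10 kb of Cyp26c1 as well, so the 9 genes are not independent. Cyp26a1 and Cyp26c1 are neighbours, and a single Hand1 peak inside Cyp26a1 (chr19:37700254-37700879, fold 7.55, 16 fragments) lay within 10 kb of both. For the enzymes that interconvert retinol and retinal the distances were 0.099 kb (Rdh10, fold 5.35) and 1.73 kb (Dhrs3, 8.13), and for the binding protein Crabp2 7.72 kb (7.56). Aldh1a2, which makes retinoic acid in the early embryo, had its nearest Foxf1 summit 26.6 kb away and Crabp1 11.1 kb.

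Of 8 TALE homeobox genes, whose proteins bind DNA together with Hox proteins, 4 had a Foxf1 summit within 10 kb. The peak 0.126 kb from Meis1 (chr11:19019606-19020018) had a fold of 14.2 from 44 fragments, and that 5.31 kb from Meis2 a fold of 10.2 from 29. Pbx4 and Pknox2 had Foxf1 peaks with a fold of 5.90 each. Of the caudal genes, which activate posterior Hox genes, Cdx2 had a Foxf1 summit 6.61 kb away (fold 7.52), while Cdx1 and Cdx4 had none within 10 kb. The ParaHox genes Gsx1, Gsx2 and Pdx1 had none within that distance either.

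Of the 9 trithorax and Polycomb genes, whose products keep Hox genes active or silent, 4 had a Foxf1 summit within 10 kb. At Kmt2a, the trithorax methyltransferase gene, the 2 lists met: the Foxf1 peak (chr9:44881123-44881732, fold 5.89, 25 fragments) and the Hand1 peak (chr9:44881314-44881793, fold 5.71, 16 fragments) overlapped, and their summits lay 0.092 and 0.111 kb from the gene. Foxf1 summits also lay 0.520 kb from Kmt2b (fold 11.3), 0.248 kb from Cbx2 (fold 5.62) and 7.61 kb from Ring1 (fold 10.96). Ezh2, Eed, Suz12, Rnf2 and Bmi1 had none within 10 kb. Both Evx1 and Evx2 had the Foxf1 peaks already described beside Hoxa13 and Hoxd13.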

How the data were processed

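ChIP-seq peak lists of 2 of the 5 samples were used, 1 per factor, and the other samples were not analysed here. Per the submitters' processing notes, Trim Galore 0.6.6, Bowtie2 2.3.4.3, SAMtools 1.9, deepTools 3.5.0 and MACS2 2.2.7.1 were used with build mm10; parameters, the control and any pooling are not given in the sources used here. The deposited fold is a linear ratio at the summit over the caller's background, and the deposited −log10 p-value and −log10 q-value belong to the same summit. The deposited score is 10 times the −log10 p-value with decimals dropped. The lowest −log10 q-value was 5.01 for Hand1 and 10.0 for Foxf1, so counts of the lists are not comparable with each other.

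Library depth is not in the lists. Fragments (k) and control level (λ) at each summit were inferred from fold = (k + 1)/(λ + 1) and the Poisson probability of more than k, for 1134 Hand1 and 5691 of 5703 Foxf1 peaks, all Hox peaks included. Of possible solutions, that with the higher λ was taken. The inference was tested on simulated data made with the same formula. That checks the solving step alone and cannot show that the formula holds for the deposited values.

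The gene table and promoter table were RefSeq GRCm38.p6. All 38 Hox symbols and 36 pathway symbols matched; 1 further gene of that list is not reported here. Strand came from the promoters of 22 Hox genes, which agreed within each cluster. Coordinates are 1-based. Distances run from the summit to the gene body. The members and gene lists were chosen with earlier results of these data known. By rule the text names each summit inside a cluster with its nearest Hox gene, the flank summits nearest to each end and the 3 of highest fold, and pathway genes with a summit within 10 kb; the remaining names were added after their values were seen. No test across samples was possible with 1 list per factor. Python 3.11.15 with scipy 1.17.1 was used.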

Additional observations from a re-analysis of the deposited data

How the results depend on the processing

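Over 11 results, 64 alternatives were run and 50 stayed within 1.5 times the count, or within the interval of the median. Some of the 50 could not have moved: the setting left the list unchanged, or could only lower a count that was already 0. No alternative placed a Hand1 summit inside a cluster or within 50 kb of a Hox gene, and none made a Hand1 and a Foxf1 peak overlap. Only 3 kinds of setting could have raised these counts: any base of the peak inside, distances of 20 kb and 50 kb, and summits within 500 bases. The others could only remove peaks or overlaps, and overlap was not counted with flanks of 500 kb. With flanks of 100 kb the windows held 16 Foxf1 and 1 Hand1 summits, and with 500 kb 46 and 4. A limit of 10 on the −log10 q-value in both lists left 1 Hand1 summit, on the posterior side. Every peak of the Foxf1 list already met this limit, so it could not remove one of them. With the Foxf1 list shortened to the Hand1 list's length by fold, 6 Foxf1 summits were left in the windows, 3 of them inside clusters and 0 on the posterior side, and 6 Hox genes had one within 10 kb. Fewer peaks entered by construction. The cut was made by fold, so the 0 on the posterior side restates the lower folds there. The Hand1 list was not shortened, so its counts could not change. Distances of 20 kb and 50 kb raised that gene count from 13 to 21 and 34. Counting summits inside clusters alone left 4 Foxf1 and 0 Hand1 summits on the posterior side. Leaving out peaks of high control level, or keeping 1 peak per region, removed no Hox peak. Comparisons with 100-kb tiles and with starts were added after the data had been seen. No paired analysis was possible because each factor had a single list, so that no replicate could be omitted in turn either.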

Other observations

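Peak names carry running numbers that rise along each chromosome, and most numbers have no line in the lists. From the last listed Foxf1 peak before Hoxa to the first after it the number rose by 48 over 190 kb, or 25.3 per 100 kb, and 5 of the 47 numbers between are listed. Across Hoxb it rose by 56 over 251 kb (22.3 per 100 kb), with 3 of 55 listed. Across Hoxc the rise was 45 over 412 kb (10.9), with 1 of 44 listed, and across Hoxd 48 over 309 kb (15.5), with 0 of 47 listed. The mean over the named chromosomes was 5.90 per 100 kb. In the Hand1 list the values were 5.79 for Hoxa, 18.5 for Hoxb and 10.6 for Hoxd, against a mean of 11.3. Hoxc gave no Hand1 value, since no listed Hand1 peak lies past it on chromosome 15. The strength of the peaks with unlisted numbers is not known, and the counts describe the numbering alone.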
